A study of Homo sapiens with 16 samples.

Results

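The integrated stress response and the unfolded protein response were followed through 42 genes out of 61228 gene rows. They were chosen by symbol, with earlier results of these data known. The ATF4 and amino acid arm held 24 genes and the XBP1 and ATF6 chaperone arm 18. The 18 include the sensor gene EIF2AK3 (PERK). A member was analysed when it had 20 or more counts over the 12 libraries that were counted alike, and 39 did: 21 of the ATF4 arm and all 18 of the chaperone arm. The other 3, ATF5, ASNS and NUPR1, were listed at 0 in all 12 libraries. The lowest totals inside this limit were 595 counts for DDIT3, 507 for ALDH1L2 and 663 for STC1, and no member lay between 0 and 20.

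mRNA was sequenced from Caco-2 cells, a line from a human colon carcinoma that differentiates into an enterocyte-like layer, on a villus-on-chip with magnetic actuation. The 16 libraries come in 4 tables of 4 replicates: IBD, cells given an induction of inflammatory bowel disease; VOS2 and VOS1, the swing groups; and NOS1, the static control, matched to its label by elimination. Labels name a physiological and a pathological swing, but none ties either to the code VOS1 or VOS2, so tables are compared under their codes. In the series design the induced group is called IBD-VOS, without a word on the swing of its chips. The sources used here give neither the agent of the induction nor its dose and time. All groups are 1 cell line with no genetic change named, and the design calls the replicates biological without saying whether they were separate chips or days, and p-values therefore reflect only how these libraries vary.

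Cells respond to amino acid shortage, haem deficit, double-stranded RNA or misfolded protein by phosphorylating the translation factor eIF2, which slows most translation but favours that of ATF4. ATF4 is a transcription factor that switches on amino acid transporters, serine and one-carbon enzymes and its own feedback regulators. Misfolded protein in the endoplasmic reticulum (ER) is sensed by PERK, IRE1 and ATF6. IRE1 splices the XBP1 mRNA, ATF6 is cut to an active fragment, and both act on ER chaperone and degradation genes. In the intestine these pathways are best known from secretory cells.

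Promoter motifs of the responses were counted in both arms, since they are the sites through which ATF4, ATF6 and XBP1 are known to act. The windows of RefSeq (GRCh38.p14), 250 bases before to 50 bases after a start site, were available for 37 of the 42 members: 19 of the ATF4 arm and 18 of the chaperone arm. Both strands were searched. The core of the ATF4 site (CARE), TGATGNAA, was found for 6 of 19 ATF4 arm genes (31.6%), 1 of 18 chaperone arm genes (5.56%) and 4.46% of 27305 genes. These 6 were CHAC1, SLC1A5, CEBPG and ASNS, with a match before the start, and SLC3A2 and SLC7A1, with a match after it. The ER stress element (ERSE), CCAAT and CCACG with 9 bases between them, was found for 0 of 19 ATF4 arm genes, 6 of 18 chaperone arm genes (33.3%) and 0.0916% of all genes. Those 6 were HSP90B1, CALR, PDIA6, HSPA5, XBP1 and CRELD2. Its variant ERSE-II, ATTGG and CCACG with 1 base between them, was found for HERPUD1, SDF2L1 and HYOU1 (16.7%, against 0.0696% of all genes). The UPRE core, TGACGTGG, was found for HYOU1 alone (5.56%, against 0.927% of all genes), where it overlaps an ERSE-II match. A match describes letters in this window and not a bound site. The arms are named after the factors that use these sites, so the shares describe the lists and test nothing in these data. The lines show the matches before a start site of the members with the smallest adjusted p-values in the expression tests, 1 for each member and motif, with the motif in capitals:
CHAC1, CARE core on the opposite strand: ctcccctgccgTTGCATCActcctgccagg
HERPUD1, CARE core on the opposite strand: gacgcggcgggTTGCATCAgcccgtgccca
HERPUD1, ERSE-II: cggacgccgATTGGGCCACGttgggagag
SLC1A5, CARE core: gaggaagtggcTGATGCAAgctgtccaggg
HSP90B1, ERSE: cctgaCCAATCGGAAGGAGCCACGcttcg
CALR, ERSE on the opposite strand: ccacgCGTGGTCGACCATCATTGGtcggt
They lie at chr15:40953251-40953280 (plus strand) for CHAC1, at chr16:56931955-56931984 (plus strand) and chr16:56932016-56932044 (plus strand) for HERPUD1, at chr19:46784893-46784922 (minus strand) for SLC1A5, at chr12:103930211-103930239 (plus strand) for HSP90B1 and at chr19:12938379-12938407 (plus strand) for CALR. HERPUD1 was the only member with matches to both a CARE core and an ER stress element.

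Depth was 16307998 to 20609117 counts per library in IBD, 15078620 to 18865457 in VOS2, 17537880 to 20021726 in NOS1 and 21868713 to 28148186 in VOS1. Values are given as CPM, counts scaled to a library total of 1e+06, and tests are edgeR quasi-likelihood tests on the counts of the 12 IBD, VOS2 and NOS1 libraries, adjusted over 14773 genes with a threshold of 0.05. VOS1 was counted over shorter gene features. The gene length implied by its counts and FPKM was shorter for 37 of 39 members and the same for HSPA5 and CEBPB. Its median was 25.4% of the length in the other tables. VOS1 is shown apart, as values without a test. All 11 intestinal epithelial markers were detected, with a summed level of 8939 to 9201 CPM in IBD, 9589 to 11254 in VOS2 and 8337 to 11226 in NOS1. The 7 fibroblast markers summed to 27.3 to 51.95 CPM in IBD, 34.6 to 43.96 in VOS2 and 31.03 to 45.6 in NOS1, the 6 endothelial markers to 14.5 to 24.9, 18.02 to 18.9 and 15.2 to 20.7 CPM and the 7 leukocyte markers to 8.87 to 11.5, 11.01 to 12.4 and 8.27 to 10.1 CPM, with the endothelial marker KDR at 0 in all 12 libraries.

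The ATF4 arm was lower in IBD than in VOS2 or NOS1, and the chaperone arm was not. Against VOS2, 10 of 21 tested ATF4 arm members fell and 0 rose, where 2.24% of all genes tested fell and 2.32% rose (4.56% in all). The median log2 fold change of the 21 was -0.43, against -0.01 over all genes. Against NOS1, 11 of 21 fell and 0 rose, where 3.01% of all genes fell and 2.80% rose (5.81% in all), and the median was -0.47, against -0.02 over all genes. In the chaperone arm 3 of 18 rose and 1 fell in each of these comparisons, with a median log2 fold change of 0.02 against VOS2 and 0.09 against NOS1. Both comparisons share the 4 IBD libraries. Such bulk values cannot tell fewer expressing cells from less RNA per cell.

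The arms also parted library by library. The median deviation of the 21 ATF4 arm members from the mean of the 8 VOS2 and NOS1 libraries, in log2 CPM, was -0.46, -0.45, -0.34 and -0.55 in IBD replicates 1 to 4, 0.03, -0.08, 0.04 and 0.02 in VOS2 and -0.04, -0.06, -0.10 and 0.13 in NOS1. Every IBD library lay below every other library on this measure. For the 18 chaperone arm members it was 0.11, 0.26, 0.09 and 0.08 in IBD, -0.04, 0.03, 0.05 and 0.06 in VOS2 and -0.03, -0.00, -0.00 and -0.07 in NOS1. Here too the IBD libraries lay on one side, above the others, but by a smaller distance. The ranges of 13 of 21 ATF4 arm members lay wholly below those of VOS2, where 8.30% of all genes tested did, and of 14 of 21 below those of NOS1, where 6.00% did. Of the chaperone arm, 6 of 18 lay wholly above VOS2 (4.45% of all genes) and 4 above NOS1 (4.21% of all genes), and HERPUD1 lay below both.

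**Figure D1:**
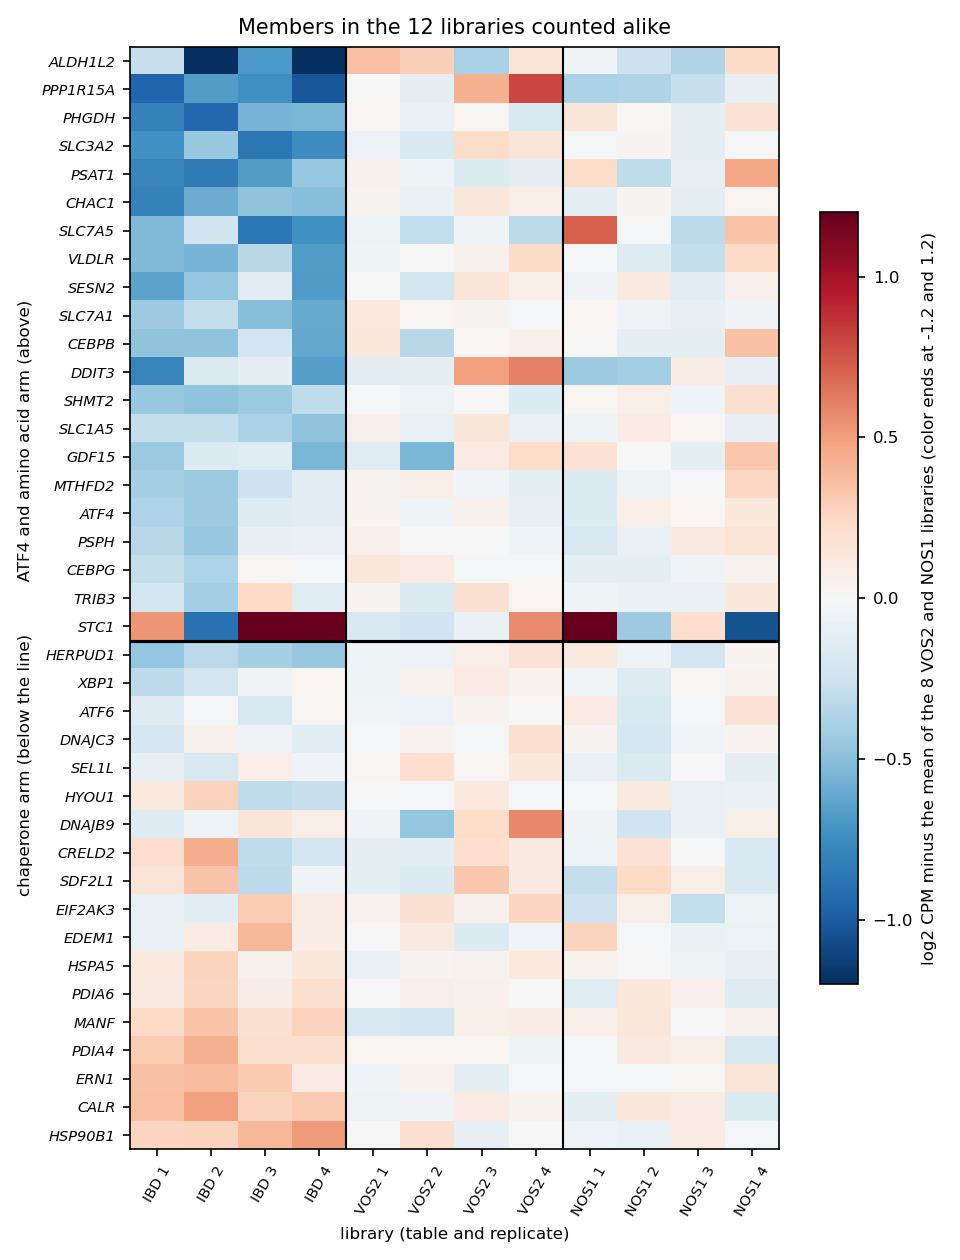
Color map of 39 members (rows) in 12 libraries (columns: IBD, VOS2 and NOS1 replicates), colored by log2 CPM minus the mean of the 8 VOS2 and NOS1 libraries. Most of the 21 ATF4 arm rows are blue in all 4 IBD columns, with STC1 the exception in 3 of them and TRIB3 and CEBPG in 1, while the 18 chaperone arm rows run from HERPUD1, lower in IBD, to HSP90B1, higher in IBD.

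None of the sensors and transcription factors at the head of the responses passed the test. ATF4 itself had 468, 438, 534 and 532 CPM in IBD replicates 1 to 4, against 621, 579, 622 and 576 in VOS2 and 552, 629, 605 and 666 in NOS1. All IBD values lay below all others, yet the log2 fold changes of -0.25 ± 0.09 against VOS2 (edgeR adjusted p = 0.110) and -0.29 ± 0.09 against NOS1 (edgeR adjusted p = 0.0584) did not pass the threshold. ATF4 is controlled mainly at translation, which these mRNA counts do not measure. Without IBD replicates 3 and 4 together the log2 fold change against NOS1 was -0.42 (edgeR adjusted p = 0.0474), and without NOS1 replicate 1 alone it was -0.34 (edgeR adjusted p = 0.0349). It passed too with library size alone as the scaling (-0.31, edgeR adjusted p = 0.0356) and by DESeq2 (adjusted p = 0.0251). EIF2AK3, the gene of PERK, was at 19.7, 18.9, 25.6 and 21.6 CPM in IBD, against 21.7, 23.7, 21.6 and 25.5 in VOS2 and 18.1, 21.7, 16.8 and 20.3 in NOS1. ERN1, the gene of IRE1, was at 26.5, 26.6, 25.6 and 21.6 CPM in IBD, against 20.4, 21.4, 19.1 and 20.8 in VOS2 and 21.1, 20.2, 20.7 and 23.3 in NOS1. The groups overlapped for EIF2AK3, while ERN1 in IBD lay wholly above VOS2 and overlapped NOS1. Spans of other genes cover 43.2% of the exon bases of EIF2AK3 in GENCODE v29, which makes its count uncertain. Its counted feature was longer, with an implied length of 134779 bases in IBD against a span of 70836 there. The overlap of the counted feature is therefore not known. ERN1 differed from VOS2 by a log2 fold change of 0.32 ± 0.09 (edgeR adjusted p = 0.0517), not past the threshold, and by 0.39 (edgeR adjusted p = 0.0327) without IBD replicate 4. It passed by DESeq2 (adjusted p = 0.0171), with RLE size factors (edgeR adjusted p = 0.0456) and with a filter of 1 CPM in 4 libraries (edgeR adjusted p = 0.0406). ATF6 was at 71.5, 77.1, 69.3 and 77.9 CPM in IBD, against 77.7, 75.5, 81.1 and 80.4 in VOS2 and 87.1, 69.1, 76.7 and 90.5 in NOS1, with overlapping groups. XBP1 was at 164, 172, 195 and 201 CPM in IBD, against 198, 209, 217 and 213 in VOS2 and 205, 181, 203 and 213 in NOS1. IBD replicates 1 and 2 lay below every other XBP1 value and replicates 3 and 4 did not, and gene counts do not show how much XBP1 was spliced. Among EIF2AK3, ATF6 and XBP1 the log2 fold changes ran from -0.17 to 0.18 against VOS2 and NOS1, none past the threshold (edgeR adjusted p of 0.286 or more).

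Of the stress transcription factors under ATF4, none passed the test against VOS2, and CEBPB did against NOS1. DDIT3, the CHOP factor of ER stress, was at 1.65, 2.57, 2.69 and 1.78 CPM in IBD, against 2.703, 2.74, 4.19 and 4.64 in VOS2 and 2.198, 2.17, 3.095 and 2.79 in NOS1. All IBD values lay below the lowest VOS2 value, the highest of them by little, and IBD replicates 1 and 4 also below every NOS1 value, with a log2 fold change of -0.69 ± 0.25 against VOS2 (edgeR adjusted p = 0.133). These levels are low, and 86.3% of the exon bases of DDIT3 lie within the span of another gene in GENCODE v29, so its count is uncertain. CEBPB, a partner of ATF4, was at 48.5, 47.7, 57.1 and 43.05 CPM in IBD, against 74.5, 53.8, 68.8 and 72.1 in VOS2 and 69.8, 61.8, 61.6 and 87.4 in NOS1. It fell by a log2 fold change of -0.49 ± 0.12 against NOS1 (edgeR adjusted p = 0.0342), with no overlap, and differed by -0.43 ± 0.12 from VOS2 (edgeR adjusted p = 0.0652). Its call against NOS1 was lost without IBD replicate 1, 2 or 4 or NOS1 replicate 4, each left out alone (-0.47 to -0.36, edgeR adjusted p 0.0504 to 0.122). The call against NOS1 was also lost in 7 of the other alternatives, a fit of the 2 tables alone, all 3 limma settings and a fit of all 16 libraries among them. Against VOS2 it passed without VOS2 replicate 2 (-0.51, edgeR adjusted p = 0.0339), without a filter on low counts (edgeR adjusted p = 0.0374), in a fit of the 2 tables alone (edgeR adjusted p = 0.0403) and by DESeq2 (adjusted p = 0.0253). Another gene's span covers 39.1% of the exon bases of CEBPB, so its count is uncertain as well. TRIB3, a pseudokinase that restrains ATF4, was at 301, 259, 409.7 and 307 CPM in IBD, against 360.3, 313, 396 and 362 in VOS2 and 347, 328, 328 and 386 in NOS1. The groups overlapped, and IBD replicate 3 was the highest of the 12 libraries. CEBPG, another ATF4 partner, ran from 131 to 172 CPM in IBD, 168 to 190.3 in VOS2 and 158 to 179 in NOS1.

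PPP1R15A, the phosphatase subunit GADD34 that removes phosphate from eIF2, showed the largest difference of the called members. It had 64.2, 76.7, 73.9 and 59.4 CPM in IBD replicates 1 to 4, against 126, 114, 167 and 220.4 in VOS2 and 97.8, 95.7, 101 and 117 in NOS1. IBD lay wholly below both, and VOS2 replicates 3 and 4 stood above replicates 1 and 2. PPP1R15A in IBD stood 2.24-fold below VOS2 (log2 fold change -1.17 ± 0.16, edgeR adjusted p = 0.000864). Against NOS1 the log2 fold change was -0.56 ± 0.16 (edgeR adjusted p = 0.0539), not past the threshold. Between VOS2 and NOS1 it was 0.60 ± 0.16 (edgeR adjusted p = 0.319). Of these 3 comparisons only the first passed. Against NOS1 it passed without IBD replicate 2 (-0.61, edgeR adjusted p = 0.0463), without the filter on low counts (edgeR adjusted p = 0.00622), in a fit of the 2 tables alone (edgeR adjusted p = 0.0256) and by DESeq2 (adjusted p = 0.0136). Without that filter the difference of VOS2 from NOS1 passed too (0.58, edgeR adjusted p = 0.0208). CHAC1, an enzyme that breaks down glutathione, was at 18.1, 20.7, 22.4 and 21.6 CPM in IBD, against 32.7, 30.04, 34.8 and 34.2 in VOS2 and 29.97, 32.05, 28.99 and 32.7 in NOS1. The IBD libraries lay within a narrow band below all others. CHAC1 fell by 0.64 ± 0.09 on the log2 scale against VOS2 (edgeR adjusted p = 0.000974) and by 0.55 ± 0.09 against NOS1 (edgeR adjusted p = 0.00345), and leaving out any 1 library of the tables compared kept both calls. SESN2, a leucine-sensing inhibitor of mTORC1, was at 16.9, 18.7, 23.7 and 15.9 CPM in IBD, against 26.4, 22.6, 29.01 and 28.4 in VOS2 and 26.2, 28.1, 23.8 and 27.7 in NOS1. It was lower by -0.47 ± 0.12 against VOS2 (edgeR adjusted p = 0.0409) and -0.47 ± 0.12 against NOS1 (edgeR adjusted p = 0.0382), with IBD replicate 3 overlapping VOS2 but no NOS1 library. Its call against VOS2 was lost without IBD replicate 1, 2 or 4 or VOS2 replicate 1, 3 or 4, each left out alone (-0.48 to -0.40, edgeR adjusted p 0.0612 to 0.143). Its call against NOS1 was lost without IBD replicate 1, 2 or 4 or NOS1 replicate 1, 2 or 4, each left out alone (-0.48 to -0.40, edgeR adjusted p 0.0540 to 0.129). In all, 12 of 20 alternatives lost the SESN2 call against VOS2 and 14 of 21 that against NOS1, all limma settings among them.

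**Figure D2:**
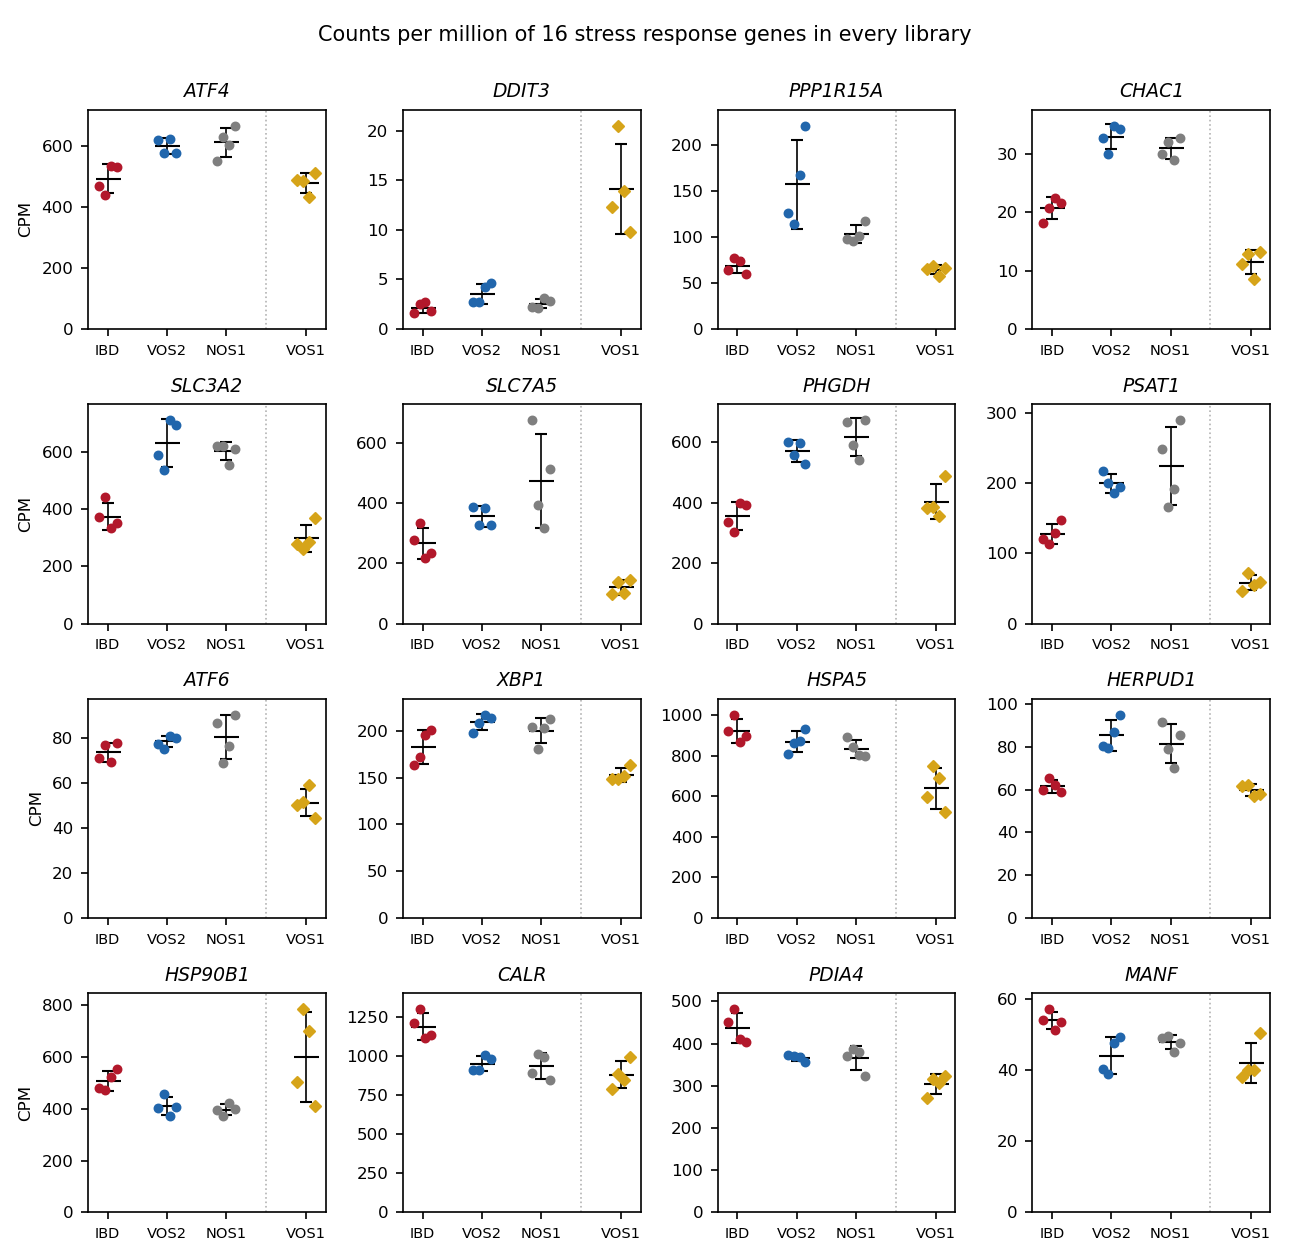
CPM (vertical axis, linear and from 0) of 16 members in each library, with IBD, VOS2 and NOS1 left of the dotted line and VOS1 right of it as diamonds. VOS1 was counted over shorter features, though HSPA5 had the same implied length. Black marks are the mean and SD of 4 libraries. CHAC1, SLC3A2 and PHGDH in IBD lie below every VOS2 and NOS1 library, and CALR and HSP90B1 above them.

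Of the 4 amino acid transporter genes, 3 fell against VOS2 and 4 against NOS1. SLC3A2, the heavy chain shared by several heteromeric transporters, was at 372, 442, 334 and 352 CPM in IBD, against 589, 538, 712 and 697 in VOS2 and 624, 624, 557 and 612 in NOS1. The highest IBD library stayed below the lowest of the others. Its log2 fold change was -0.73 ± 0.10 against VOS2 (edgeR adjusted p = 0.000868) and -0.66 ± 0.10 against NOS1 (edgeR adjusted p = 0.00202). SLC7A1, a carrier of cationic amino acids, was at 203, 222, 192 and 175 CPM in IBD, against 300.4, 279, 281 and 276 in VOS2 and 286, 264, 254 and 269 in NOS1. It was lower by -0.50 ± 0.07 (edgeR adjusted p = 0.00126) and -0.42 ± 0.07 (edgeR adjusted p = 0.00541) against VOS2 and NOS1, without overlap. SLC1A5, a glutamine carrier, was at 269.8, 266, 249.7 and 229 CPM in IBD, against 346, 308, 363 and 316 in VOS2 and 325, 349, 329.7 and 311 in NOS1. Its groups were also apart, with -0.37 ± 0.08 against VOS2 (edgeR adjusted p = 0.0137) and -0.35 ± 0.08 against NOS1 (edgeR adjusted p = 0.0181). The call was lost against VOS2 without IBD replicate 4 or VOS2 replicate 1 or 3, each left out alone (-0.35 to -0.31, edgeR adjusted p 0.0556 to 0.0651). Against NOS1 it was lost without IBD replicate 3 or 4, each left out alone (-0.34 to -0.31, edgeR adjusted p 0.0570 to 0.0698). Another gene's span covers 49.8% of the exon bases of SLC1A5, which makes its count uncertain. SLC7A5, the light chain LAT1 that pairs with SLC3A2 to carry large neutral amino acids, was at 279, 335, 217 and 235 CPM in IBD, against 387, 327, 385 and 327 in VOS2 and 675, 393, 318 and 513 in NOS1. NOS1 replicates 1 and 4 held the highest values, and IBD replicate 2 overlapped both other tables. The same NOS1 libraries stood apart in VIM, the mesenchymal filament vimentin, at 10.2, 13.2, 8.14 and 14.96 CPM in IBD, against 13.99, 4.88, 10.9 and 9.82 in VOS2 and 92.6, 19.4, 6.81 and 74.8 in NOS1, and in the keratin KRT7, at 49.3, 67.1, 41.4 and 95.7 CPM in IBD, against 38.7, 16.2, 36.4 and 41.1 in VOS2 and 263, 59.2, 22.3 and 221 in NOS1. Without NOS1 replicates 1 and 4 together 7 ATF4 arm and 0 chaperone arm members were called against NOS1, SLC7A5 not among them (-0.41, edgeR adjusted p = 0.183). Calls over all genes fell there from 858 to 362. What this split adds to the results was not tested otherwise. SLC7A5 fell by 0.80 ± 0.18 against NOS1 (edgeR adjusted p = 0.0211) and differed by -0.39 ± 0.18 from VOS2 (edgeR adjusted p = 0.261), not past the threshold. The call against NOS1 was lost without IBD replicate 3 or 4 or NOS1 replicate 4, each left out alone (-0.75 to -0.71, edgeR adjusted p 0.0665 to 0.0731).

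Serine synthesis and the mitochondrial folate enzymes were lower in part. PHGDH, the first enzyme of serine synthesis, was at 336, 302, 397 and 391 CPM in IBD, against 601, 556, 598 and 527 in VOS2 and 666, 589.9, 540.3 and 672 in NOS1. The highest IBD library lay well below the lowest of the other 8. PHGDH in IBD stood 1.57-fold below VOS2 (log2 fold change -0.65 ± 0.10, edgeR adjusted p = 0.00136) and 1.701-fold below NOS1 (-0.77 ± 0.10, edgeR adjusted p = 0.000494). PSAT1, the aminotransferase of the next step, was at 120.4, 114, 129.6 and 147 CPM in IBD, against 218, 200.5, 185 and 195 in VOS2 and 248, 167, 191 and 289.6 in NOS1. It was lower by -0.62 ± 0.14 against VOS2 (edgeR adjusted p = 0.0191) and -0.78 ± 0.14 against NOS1 (edgeR adjusted p = 0.00540), without overlap, though the call against VOS2 was lost without IBD replicate 1 or VOS2 replicate 1 or 4, each left out alone (-0.62 to -0.57, edgeR adjusted p 0.0577 to 0.0688). PSPH, the phosphatase of the last step, ran from 88.1 to 113 CPM in IBD, 120.1 to 128 in VOS2 and 109.9 to 138 in NOS1. Its log2 fold change was -0.24 ± 0.10 against VOS2 (edgeR adjusted p = 0.189), not past the threshold, although IBD lay wholly below VOS2. SHMT2, which turns serine into glycine in mitochondria, was at 259, 249, 257 and 278 CPM in IBD, against 353, 338, 351 and 323 in VOS2 and 368, 370.3, 336 and 412 in NOS1. It was lower by -0.36 ± 0.07 (edgeR adjusted p = 0.0106) and -0.49 ± 0.07 (edgeR adjusted p = 0.00172) against VOS2 and NOS1, with IBD below both. MTHFD2, the folate enzyme downstream, ran from 170.2 to 209 CPM in IBD, 221 to 248 in VOS2 and 215 to 284 in NOS1, also apart, with -0.30 ± 0.10 against VOS2 (edgeR adjusted p = 0.0958). ALDH1L2, another mitochondrial folate enzyme, ran from 0.613 to 2.23 CPM in IBD, 2.04 to 3.55 in VOS2 and 2.06 to 3.25 in NOS1. Neither MTHFD2 nor ALDH1L2 passed the threshold in the main fit. MTHFD2 did against NOS1 without NOS1 replicate 1 (-0.37, edgeR adjusted p = 0.0466), with library size alone as the scaling (edgeR adjusted p = 0.0443) and by DESeq2 (adjusted p = 0.0321). In GENCODE v29 74.2% and 97.8% of their exon bases lie in another gene's span. Their counted features were longer, with implied lengths of 31394 and 87875 bases in IBD against spans of 19004 and 64794.

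Secreted and surface targets did not move as one. VLDLR, a lipoprotein receptor known as a target of ATF4 and of the hypoxia-inducible factor HIF, was at 9.75, 9.42, 11.1 and 8.58 CPM in IBD, against 13.7, 14.1, 14.6 and 16.9 in VOS2 and 14.3, 12.5, 11.4 and 16.7 in NOS1. IBD lay below both tables, by -0.58 ± 0.13 against VOS2 (edgeR adjusted p = 0.0203) and -0.48 ± 0.13 against NOS1 (edgeR adjusted p = 0.0460). Its call against VOS2 was lost without IBD replicate 1 or 4 or VOS2 replicate 3 or 4, each left out alone (-0.58 to -0.51, edgeR adjusted p 0.0564 to 0.0880). Its call against NOS1 was lost without IBD replicate 1, 2, 3 or 4 or NOS1 replicate 1, 2 or 4, each left out alone (-0.54 to -0.36, edgeR adjusted p 0.0581 to 0.162). In all, 8 of 20 alternatives lost the VLDLR call against VOS2 and 16 of 21 that against NOS1. STC1, a secreted glycoprotein and likewise a HIF target, was at 2.91, 1.004, 9.93 and 5.15 CPM in IBD, against 1.75, 1.67, 1.87 and 3.05 in VOS2 and 4.84, 1.43, 2.27 and 0.913 in NOS1. It was the only one of the 21 with a positive log2 fold change in either comparison, 1.22 ± 0.57 against VOS2 (edgeR adjusted p = 0.262), but its groups overlapped. Without IBD replicates 3 and 4 together the STC1 values turned to -0.06 (edgeR adjusted p = 0.985) against VOS2 and -0.25 (edgeR adjusted p = 0.895) against NOS1. GDF15, a stress-induced cytokine, ran from 53.7 to 72.4 CPM in IBD, 55.4 to 96.1 in VOS2 and 73.8 to 103 in NOS1, with a log2 fold change of -0.42 ± 0.15 against NOS1 (edgeR adjusted p = 0.108) that passed without a filter on low counts (edgeR adjusted p = 0.0413). Beside these stands the level of 11 hypoxia genes, whose median deviation in log2 CPM was 1.01, -0.11, 2.24 and 1.99 in IBD replicates 1 to 4, -0.09, 0.08, -0.13 and -0.15 in VOS2 and 0.62, -0.12, -0.19 and 0.04 in NOS1. STC1 was highest in IBD replicates 3 and 4 and NOS1 replicate 1. IBD replicate 2 was level with VOS2 and NOS1 on the hypoxia genes, and its ATF4 arm deviation of -0.45 was close to that of the IBD libraries high in them. The part of the hypoxia genes in the ATF4 arm result was not tested.

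**Figure D3:**
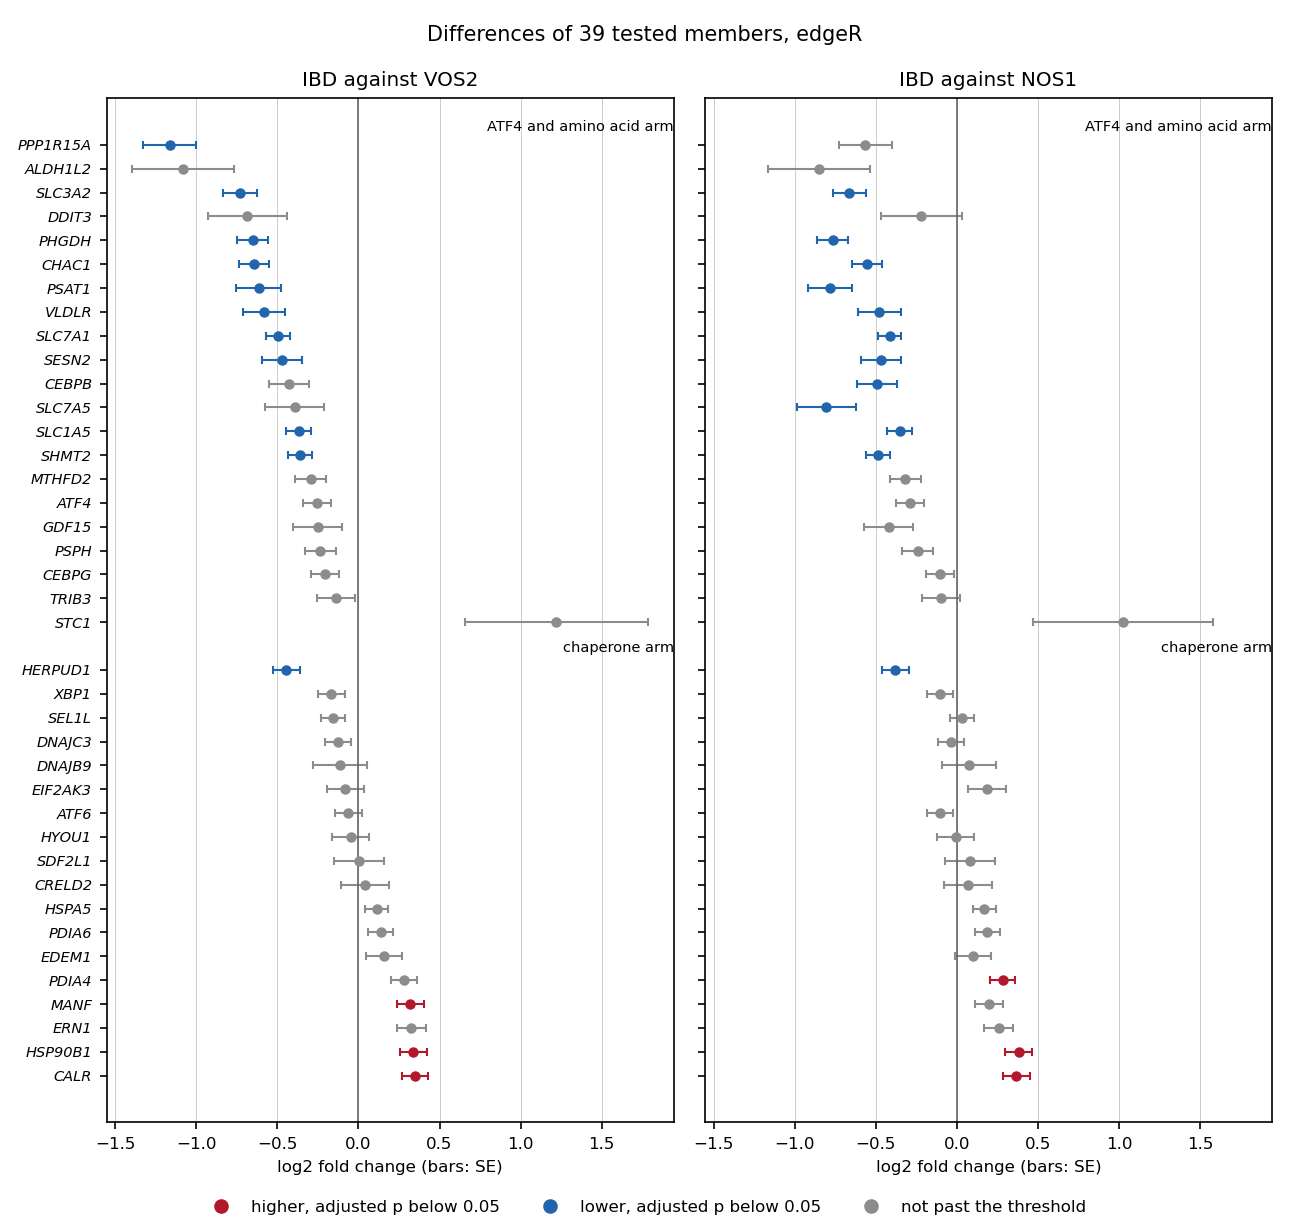
Log2 fold change (horizontal axis) with its SE of the 39 tested members in IBD against VOS2 (left) and IBD against NOS1 (right), on one scale; blue and red mark calls at an adjusted p below 0.05, lower and higher. The ATF4 arm lies left of 0 apart from STC1, and the chaperone arm is spread around 0 with HERPUD1 alone called lower.

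Of the 18 chaperone arm members 13 passed in neither comparison, 4 rose in at least 1 and HERPUD1 fell in both. Without IBD replicates 3 and 4 together 0 chaperone arm members were called in either comparison. In a fit of the 2 tables alone 0 were called against NOS1, where calls over all genes fell from 858 to 233. Without those replicates calls over all genes fell from 674 to 222 against VOS2 and from 858 to 155 against NOS1. The log2 fold changes against VOS2 and NOS1 were then 0.42 and 0.44 for CALR and 0.37 and 0.37 for PDIA4. They were 0.35 and 0.23 for MANF, 0.24 and 0.28 for HSP90B1 and -0.43 and -0.36 for HERPUD1. HSPA5, the master ER chaperone BiP, was at 924, 1003, 868 and 897 CPM in IBD, against 809.6, 863, 872 and 934 in VOS2 and 891, 843, 803 and 799 in NOS1. The groups overlapped, and the log2 fold changes of 0.11 ± 0.07 against VOS2 (edgeR adjusted p = 0.420) and 0.17 ± 0.07 against NOS1 (edgeR adjusted p = 0.163) did not pass the threshold. HSP90B1, the ER member of the HSP90 family (GRP94), was at 482, 474, 522 and 556 CPM in IBD, against 403, 457, 373 and 408 in VOS2 and 394, 372, 423 and 399 in NOS1. IBD lay wholly above both, by 0.34 ± 0.08 against VOS2 (edgeR adjusted p = 0.0301) and 0.38 ± 0.08 against NOS1 (edgeR adjusted p = 0.0165). The call against VOS2 was lost without IBD replicate 3 or 4 or VOS2 replicate 1, 3 or 4, each left out alone (0.29 to 0.34, edgeR adjusted p 0.0663 to 0.0967). Against NOS1 it was lost without IBD replicate 4 (0.33, edgeR adjusted p = 0.0554). CALR, the calcium-binding lectin calreticulin, was at 1212, 1302, 1118 and 1135 CPM in IBD, against 910.5, 913, 1007 and 986 in VOS2 and 895, 1018, 996 and 846 in NOS1. It too lay wholly above, by 0.35 ± 0.08 against VOS2 (edgeR adjusted p = 0.0267) and 0.37 ± 0.08 against NOS1 (edgeR adjusted p = 0.0206). The call against VOS2 was lost without IBD replicate 1 or 4 or VOS2 replicate 1, 2 or 4, each left out alone (0.33 to 0.37, edgeR adjusted p 0.0538 to 0.0987). Against NOS1 it was lost without NOS1 replicate 4 (0.33, edgeR adjusted p = 0.0589). In fold terms HSP90B1 was 1.26 and 1.302 times and CALR 1.27 and 1.29 times its level in VOS2 and NOS1. An ERSE match was found for both and also for HSPA5, PDIA6, XBP1 and CRELD2, none of which passed the test.

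MANF and PDIA4 each passed 1 comparison, close to the threshold. MANF, a secreted ER stress factor, was at 53.9, 56.99, 51.2 and 53.5 CPM in IBD, against 40.2, 38.97, 47.6 and 49.2 in VOS2 and 48.8, 49.4, 45.04 and 47.6 in NOS1. It rose by 0.32 ± 0.09 against VOS2 (edgeR adjusted p = 0.0467) and differed by 0.20 ± 0.09 from NOS1 (edgeR adjusted p = 0.182). The call was lost without IBD replicate 1, 2, 3 or 4 or VOS2 replicate 1, 2 or 3, each left out alone (0.28 to 0.38, edgeR adjusted p 0.0502 to 0.151). In all, 15 of 20 alternatives lost it. Among them were library size alone, all limma settings, a fit of the 2 tables alone, all 16 libraries and the replicate block. PDIA4, a protein disulfide isomerase, was at 452, 481, 411 and 404 CPM in IBD, against 373, 369.6, 368 and 356 in VOS2 and 369.6, 387, 380.2 and 323 in NOS1. It rose by 0.28 ± 0.08 against NOS1 (edgeR adjusted p = 0.0482) and differed by 0.28 ± 0.08 from VOS2 (edgeR adjusted p = 0.0585). The call was lost without IBD replicate 1, 2, 3 or 4 or NOS1 replicate 1 or 4, each left out alone (0.24 to 0.32, edgeR adjusted p 0.0621 to 0.124). It was also lost with library size alone, without a filter on low counts, under all 3 limma settings, in a fit of the 2 tables alone, with all 16 libraries and with the replicate number as a block. Against VOS2 it passed by DESeq2 (adjusted p = 0.0104), in a fit of the 2 tables alone (edgeR adjusted p = 0.0378) and with a filter of 1 CPM in 4 libraries (edgeR adjusted p = 0.0468). HERPUD1, an ER membrane protein of the degradation machinery, was at 59.97, 65.2, 62.1 and 58.7 CPM in IBD, against 80.4, 79.2, 86.96 and 94.97 in VOS2 and 91.4, 79.1, 70.1 and 85.4 in NOS1. IBD lay wholly below both tables, by -0.45 ± 0.08 against VOS2 (edgeR adjusted p = 0.00658) and -0.38 ± 0.08 against NOS1 (edgeR adjusted p = 0.0177). The call against NOS1 was lost without IBD replicate 1 or 4 or NOS1 replicate 4, each left out alone (-0.36 to -0.35, edgeR adjusted p 0.0560 to 0.0668).

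The other chaperone arm members did not pass the test. The disulfide isomerase PDIA6, the HSP70 relative HYOU1, the co-chaperones DNAJB9, DNAJC3 and SDF2L1, the ER protein CRELD2 and the degradation factors SEL1L and EDEM1 had log2 fold changes of -0.16 to 0.19 against VOS2 and NOS1, none past the threshold. PDIA6 in IBD, at 511 to 570.2 CPM, lay wholly above VOS2, at 489 to 505 CPM. HYOU1, CRELD2 and SDF2L1 shared a pattern within IBD. HYOU1 had 302, 332, 222 and 222 CPM in IBD replicates 1 to 4, CRELD2 37.3, 43.1, 25.9 and 26.9 CPM and SDF2L1 39.1, 43.9, 27.9 and 32.99 CPM. Replicates 1 and 2 were above replicates 3 and 4 in each, the opposite of the hypoxia genes, of which replicates 3 and 4 held the highest deviations. This pattern was noticed in the values, and its part in the results was not tested.

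Genes of the same pathways outside the 42 were read from lists of 37 and 38. These lists were also chosen with earlier results of these data known, so they are no independent check on the arms. Of 35 tested further genes of the integrated stress response, 12 fell and 1 rose against VOS2, where 2.24% of all genes tested fell and 2.32% rose, and 16 fell and 1 rose against NOS1, where 3.01% fell and 2.80% rose. The median log2 fold change of the 35 was -0.20 in each comparison, against -0.01 over all genes for VOS2 and -0.02 for NOS1. Over both further lists 14 genes were called against VOS2 and 18 against NOS1, and 7 and 10 without IBD replicates 3 and 4 together. Against NOS1 the number was 8 without NOS1 replicates 1 and 4 together, 9 without NOS1 replicate 4 alone and 11 without IBD replicate 3 alone. Calls over all genes numbered 674 against VOS2 and 858 against NOS1, and 222 and 155 without IBD replicates 3 and 4 together. Against NOS1 they numbered 362 without NOS1 replicates 1 and 4 together, and they also moved with 1 library left out. JDP2, a repressor of the bZIP family, was at 28.3, 25.5, 30.9 and 29.98 CPM in IBD, against 59.4, 48.5, 60.9 and 53.8 in VOS2 and 51.1, 52.1, 48.4 and 53.4 in NOS1, a log2 fold change of -0.93 ± 0.09 against VOS2 (edgeR adjusted p = 8.09e-05). EIF4EBP1, an inhibitor of cap-dependent translation, was at 76.1, 87.7, 70.3 and 83.3 CPM in IBD, against 146, 129, 141 and 124 in VOS2 and 124, 142, 127 and 148 in NOS1 (-0.74 ± 0.09 against VOS2, edgeR adjusted p = 0.000348). The cystine carrier SLC7A11 was lower by -0.79 ± 0.12 (edgeR adjusted p = 0.00135) and the seryl-tRNA synthetase SARS1 by -0.51 ± 0.08 (edgeR adjusted p = 0.00221). All 4 lay wholly below both other tables in IBD. Another gene's span covers 82.1% of the exon bases of SLC7A11, which makes its count uncertain. Against NOS1 the 4 smallest adjusted p-values belonged to JDP2, EIF4EBP1, SLC7A11 and the cysteine-forming enzyme CTH, at -1.10 ± 0.16 (edgeR adjusted p = 0.00128). Of the 12 cytosolic tRNA synthetases on this list, a group named after its values were seen, 6 fell against VOS2 (AARS1, GARS1, MARS1, SARS1, WARS1 and YARS1) and 8 against NOS1 (the same ones, CARS1 and IARS1), and 0 rose. EPRS1, LARS1, NARS1 and TARS1 passed in neither comparison, with log2 fold changes of -0.22 to 0.05 against VOS2 among these 4 and -0.26 to -0.15 against NOS1. The count of WARS1 is uncertain, with 52.6% of its exon bases in the spans of other genes. So is that of MARS1, with 31.3% in the spans of others, DDIT3 among them. ALDH18A1, an early enzyme of proline synthesis, was the 1 that rose. It was at 485, 440.2, 583 and 548 CPM in IBD, against 376, 400.1, 377 and 356 in VOS2 and 404, 429, 386 and 364 in NOS1.

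Of 35 tested further genes of the unfolded protein response, 1 rose and 0 fell in each comparison, a share near the 2.32% and 2.80% of all genes that rose against VOS2 and NOS1, with a median log2 fold change of 0.05 against VOS2 and 0.02 against NOS1. The 1 was ERO1A, the oxidase that drives disulfide formation and a known HIF target, at 306, 268, 594 and 487 CPM in IBD, against 209, 234, 179 and 205 in VOS2 and 193, 175, 200.3 and 194 in NOS1. It was higher by 1.03 ± 0.19 against VOS2 (edgeR adjusted p = 0.00668) and 1.14 ± 0.19 against NOS1 (edgeR adjusted p = 0.00417), and IBD replicates 3 and 4, the libraries highest in hypoxia genes, held its highest values. The part of the hypoxia genes in this result was not tested.

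**Figure D4:**
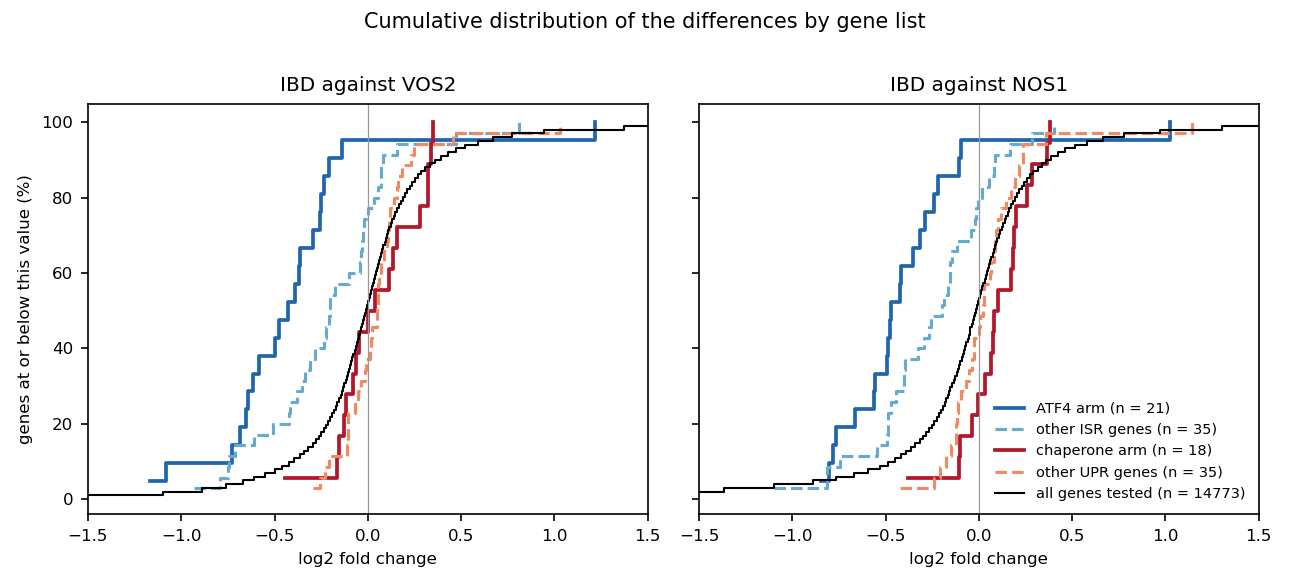
Share of genes (vertical axis, percent) at or below each log2 fold change (horizontal axis) in IBD against VOS2 (left) and IBD against NOS1 (right), for both arms, the 2 further lists and all 14773 genes tested, the last drawn from percentiles. The curves of the ATF4 arm and of the further integrated stress response genes lie left of that of all genes, and those of the chaperone arm and the further unfolded protein response genes run close to it or to its right.

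Between the swing table VOS2 and the static NOS1 no member passed the test, nor did any of the 14773 genes (0%), where 1457 genes had an unadjusted p below 0.05. DESeq2 called 6 genes, edgeR without the filter on low counts 255, PPP1R15A among them, and edgeR without NOS1 replicate 3 376, with no member among them. The median log2 fold change was 0.01 in the ATF4 arm and 0.05 in the chaperone arm. At an unadjusted p below 0.05 stood 2 members of each arm: PPP1R15A, SLC7A5, EIF2AK3 and SEL1L. SEL1L, the adaptor of the HRD1 ligase, ran from 121 to 137 CPM in VOS2 and 104 to 117 CPM in NOS1. It was the 1 member of 39 whose ranges did not overlap. Of all genes tested, 2.82% lay wholly higher in VOS2 and 1.76% wholly lower, so 1 member is near that share.

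In VOS1 the 3 members listed at 0 elsewhere had counts. ATF5, a sister factor of ATF4, had 21.02, 17.4, 22.1 and 30.6 CPM in VOS1 replicates 1 to 4, ASNS, the asparagine synthetase, 1.74, 1.84, 1.97 and 0.924 CPM and NUPR1, a stress cofactor, 0.357, 0.2301, 0.0457 and 0.462 CPM. All exon bases of ATF5 and ASNS lie within the span of another gene in GENCODE v29, and NUPR1 overlaps none there. Of the 42 members, 22 overlap another gene, 18 of them in exon bases. DDIT3 was at 12.3, 20.5, 13.9 and 9.77 CPM in VOS1, above every other library, and CHAC1 at 11.2, 12.9, 8.64 and 13.2 CPM, below every other. Of the ATF4 arm, ATF4 was at 489, 485, 432 and 510.2 CPM, PPP1R15A at 65.6, 68.8, 57.8 and 66.3 CPM and TRIB3 at 302, 323, 247 and 288 CPM. HSPA5 was at 597, 750.0, 691 and 522 CPM, XBP1 at 148, 149, 152 and 164 CPM and ATF6 at 50.5, 51.5, 59.4 and 44.4 CPM. The implied length of HSPA5 was the same in every table, but its CPM rests on VOS1 totals counted over other features. CEBPB, whose implied length was also the same, went the other way from CHAC1. It had 2216, 2512, 1776 and 3190 counts in VOS1 replicates 1 to 4. The other tables held 702 to 1018 counts in IBD, 905 to 1406 in VOS2 and 1083 to 1723 in NOS1, from smaller library totals. Among the called members SLC3A2 ran from 262 to 369 CPM, PHGDH from 356 to 487 CPM, PSAT1 from 46.9 to 72.5 CPM, HERPUD1 from 56.9 to 62.4 CPM, CALR from 794 to 999.5 CPM and HSP90B1 from 412 to 785 CPM. Counting and treatment cannot be told apart in these values.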

How the data were processed

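mRNA of 16 Caco-2 libraries was sequenced, 4 in each of the tables IBD, VOS2, NOS1 and VOS1. The authors deposited raw counts, whole numbers per gene, and FPKM, fragments per kilobase and library size, for 61228 gene rows per table, and 0 value columns were left unused. STAR 2.7.11a, featureCounts 2.0.6, fastp 0.23.4, DESeq2 1.42.0 and FastQC 0.12.1 are named in the submitters' processing notes, as is hg38. Settings, annotation and strand mode are not given there. Per the labels' protocols mRNA was taken by polyT and no step marks the strand, so counts of overlapping genes are uncertain. Dividing counts by FPKM gave the feature lengths: for 26 of 39 members within 1% of the whole gene span of GENCODE v29 in IBD, VOS2 and NOS1, and for 18 of 42 within 1% of the joined exons in VOS1.

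The counts of 12 libraries (IBD, VOS2, NOS1) were fitted together with edgeR 4.0.16 in R 4.3.3: TMM scaling (factors 0.972 to 1.03), default filter on low counts by table, quasi-likelihood tests, Benjamini-Hochberg adjustment over 14773 genes, threshold 0.05. The SE of a log2 fold change is its size over the square root of F. CPM uses library totals, and deviations use log2 CPM with a prior count of 2. No 2 libraries of a table agreed within sampling noise.

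The 42 members, the arms and the further lists were chosen with earlier results of these data known. Values in every library are given for members past the threshold in any comparison and for ATF4, DDIT3, TRIB3, ATF6, XBP1, ERN1, EIF2AK3 and HSPA5, the others by range, and up to 4 genes of each further list by smallest adjusted p. At most 6 promoter matches are printed, by smallest adjusted p. Alternatives were RLE size factors, library size alone, a minimum of 1 CPM in 4 libraries, no filter, DESeq2, limma 3.58.1 on log2(FPKM + 1) and log2(FPKM + 0.1), a fit of the 2 tables compared, a fit of all 16 libraries, the replicate number as a block, and libraries left out.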

Additional observations from a re-analysis of the deposited data

Results flagged for a closer look

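For the members, 159 groups of 4 libraries were screened for a library far from the other 3, and 8 groups held one, where chance gives about 1 in 20. In 6 of the 8 it was VOS1 replicate 4, the highest of its table each time: 90.6 CPM for PSPH, where the other 3 VOS1 libraries ran from 73.6 to 74.3, 290.1 CPM for SHMT2 (189 to 206), 89.1 CPM for GDF15 (63.2 to 66.7), 47.2 CPM for SDF2L1 (26.2 to 28.8), 29.6 CPM for CRELD2 (20.04 to 21.1) and 50.3 CPM for MANF (38.0 to 39.9). VOS1 was left out of the main fit, so these values bear only on the alternative fit of all 16 libraries. STC1 stood at 3.05 CPM in VOS2 replicate 4, against 1.67 to 1.87 in the other 3. EDEM1 stood at 40.7 CPM in NOS1 replicate 1, against 30.7 to 32.2 in the others, and that library was also the NOS1 library highest in hypoxia genes.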

How the results depend on the processing

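Members called against VOS2 or NOS1 kept their direction under every alternative run. Their calls were lost in 64 of 280 member and setting pairs against VOS2 and 90 of 315 against NOS1. CHAC1, PPP1R15A, SLC3A2, SLC7A1 and PHGDH never lost theirs against VOS2, nor CHAC1, SLC3A2, PHGDH and SHMT2 against NOS1. Of members not called, ATF6 turned to 0.026 against NOS1 without NOS1 replicates 1 and 4, and STC1 to -0.055 against VOS2 and -0.246 against NOS1 without IBD replicates 3 and 4.

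Counts of all genes and of members that moved by over 1.5 times follow, all genes first, set against 674 called genes, 10 ATF4 arm and 4 chaperone arm members in IBD against VOS2, 858, 11 and 4 in IBD against NOS1, and 0 in VOS2 against NOS1. Without a filter 1294 genes were called against NOS1, and in VOS2 against NOS1 255 genes and 1 ATF4 arm member. DESeq2 called 1072 genes against VOS2, 1335 against NOS1 and 6 in VOS2 against NOS1. Against NOS1, limma on log2(FPKM + 1) called 349 genes and 7 ATF4 arm members, and with + 0.1 397 and 7. Limma without a filter called 297 genes and 1 chaperone arm member against VOS2, and 189 genes, 6 ATF4 arm and 0 chaperone arm members against NOS1. A fit of the IBD and NOS1 tables alone called 233 genes, 7 and 0. All 16 libraries left 1 chaperone arm member against VOS2 and 2 against NOS1. Without IBD replicates 3 and 4 together 222 genes, 9 ATF4 arm and 0 chaperone arm members were called against VOS2. The 9 were not all among the 10 of the main fit, since SLC1A5 and VLDLR lost their calls (edgeR adjusted p = 0.150 and 0.0908). Against NOS1 155 genes, 6 and 0 were called, and the 6 included ATF4, not called in the main fit. Without NOS1 replicates 1 and 4 together 362 genes, 7 and 0 were called against NOS1. With 1 library left out, counts ran from 316 to 961 genes and 1 to 3 chaperone arm members against VOS2, from 305 to 1351 genes, 6 to 11 ATF4 arm and 1 to 4 chaperone arm members against NOS1, and from 0 to 376 genes in VOS2 against NOS1. The causes were not tested.

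With the replicate number as a block 418 genes, 8 ATF4 arm and 1 chaperone arm members were called against VOS2 and 593, 9 and 3 against NOS1. The numbers do not pair the samples: deviations of same-numbered libraries correlated at -0.23 to 0.19, over 0.1 in 4 of 12 pairs, and 2 of 12 libraries matched best with their own number. Counts near 2 CPM (DDIT3, ALDH1L2, STC1) limit the precision, and counting over gene spans limits overlapping members.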
